A study of Mus musculus with 12 samples.

Results

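The mRNAs described here are 8 transcripts of the cholesterol pathway, Hmgcs1, Idi1, Fdps, Fdft1, Sqle, Cyp51, Dhcr7 and Insig1, taken from the count table by their gene symbols. All 8 were among the 55376 genes listed and among the 12224 genes expressed highly enough to be tested. RNA-Seq had been carried out on 12 libraries from 4T1, a line of mouse mammary gland cancer cells, whose lysates were separated on sucrose gradients. Mock cells carried the empty vector and METTL7A1 cells a stably transfected, FLAG-tagged Mettl7a1, a methyltransferase-like protein found in part at the endoplasmic reticulum. All cells received cycloheximide at 0.1 mg/ml for 5 min before lysis. The sub-polysomal pool joined fractions 3 to 7, with free ribosomal subunits and monosomes, and the polysomal pool joined fractions 8 to 11. With 3 replicates for each genotype and pool there were 4 groups. The replicates of mock cells bear the letters A, B and C, and those of METTL7A1 cells the letters D, E and F. The labels do not say whether a genotype was 1 clone or a mixed population, nor whether the letters mark separate cultures. The study describes its gradients as independent fractionations of biological replicates, without tying them to these letters. The p-values measure the spread between these libraries.

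Cells make cholesterol from acetyl-CoA through mevalonate, isoprenoid diphosphates, squalene and lanosterol. When sterols in the endoplasmic reticulum fall, SCAP carries the membrane-bound factor SREBP2 to the Golgi, where it is cleaved, and the released fragment switches on the genes of synthesis and uptake. INSIG proteins hold SCAP back when sterols are plentiful. Among the 8 mRNAs, 7 encode enzymes and Insig1 encodes an INSIG protein. None encodes a receptor for uptake, and mRNAs of sterol uptake and transport were read as a separate list.

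SREBP2 acts at promoters through the sterol regulatory element (SRE), usually beside sites for the factors NF-Y and Sp1. RefSeq promoters of the GRCm38.p6 build, from 250 bases before to 50 bases after each annotated start, were at hand for 5 of the 8 genes (7 windows). They were searched on both strands for the SRE letters TCACNCCAC, the NF-Y box CCAAT, the Sp1 box GGGCGG and the E box CACGTG. The promoters below belong to the Hmgcs1 gene, which alone held the SRE letters, to Insig1, which held an NF-Y box and an E box, and to Cyp51, whose mRNA differed most between genotypes in polysomal RNA. Capitals mark matches to the 4 motifs (ATTGG and CCGCCC are the reverse strands of the NF-Y and Sp1 boxes), and only bases before the RefSeq start and outside the gene as listed in the count table are shown.
Hmgcs1, chr13:119690101-119690350, plus strand: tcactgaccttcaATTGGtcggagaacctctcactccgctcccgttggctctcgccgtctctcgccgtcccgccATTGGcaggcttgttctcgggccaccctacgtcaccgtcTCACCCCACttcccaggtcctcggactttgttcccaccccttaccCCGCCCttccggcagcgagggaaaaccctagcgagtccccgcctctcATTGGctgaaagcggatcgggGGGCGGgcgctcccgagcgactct
Insig1, chr5:28071162-28071362, plus strand: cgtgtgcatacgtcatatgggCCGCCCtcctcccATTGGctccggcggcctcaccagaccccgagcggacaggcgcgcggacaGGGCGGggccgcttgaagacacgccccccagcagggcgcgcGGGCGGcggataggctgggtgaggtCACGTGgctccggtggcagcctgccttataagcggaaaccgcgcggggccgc
Cyp51, chr5:4104747-4104947, minus strand: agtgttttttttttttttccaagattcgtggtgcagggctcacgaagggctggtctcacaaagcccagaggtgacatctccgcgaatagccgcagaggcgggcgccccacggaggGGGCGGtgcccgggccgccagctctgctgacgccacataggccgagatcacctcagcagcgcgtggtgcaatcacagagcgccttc

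In the Hmgcs1 promoter the SRE letters began 137 bases before the start. They were present in 1.06% of the 11575 promoters of tested genes and in 0 of 12 promoters of the other cholesterol enzymes. An NF-Y box lay in 5 of 7 windows, at least 1 for each of the 5 genes, against 38.1% of the promoters of tested genes. The Cyp51 one, 29 bases before the RefSeq start, lay among the bases left out above. Sp1 boxes lay in 85.7% of the member windows and 64% of the promoters of tested genes, and E boxes in 28.6% and 10.2%. In the promoters of the other cholesterol enzymes the shares were 83.3% for NF-Y, 83.3% for Sp1 and 16.7% for E boxes. These matches describe letters only, and no match says nothing about the factor.

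Library totals ranged from 1817520 counts in mock sub-polysomal replicate A, the shallowest library, to 6966156, and 3 counts equalled 0.431 to 1.65 CPM, the unit of counts scaled to library size. Mettl7a1 had 4 to 24 counts in mock and 989 to 2436 in METTL7A1 libraries. Mitochondrial transcripts took 4.37% to 8.49% of the sub-polysomal and 0.684% to 2.14% of the polysomal counts. The epithelial markers Krt8, Krt18, Krt19, Epcam and Cdh1 were counted in all 12 libraries. Of the markers of other cell types, Cd3e and Col1a2 were at 0 throughout, Ptprc, Pecam1, Cdh5, Col1a1 and Dcn did not exceed 4 counts, and Cd68 had 20 to 167 counts. In such bulk RNA, fewer cells of a type and less RNA per cell cannot be told apart.

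The number of reads behind the members differed widely. Idi1 rested on 3 to 46 counts per library and Fdps on 4 to 89, while Cyp51 reached 2577. How the counting treated strand and reads with several matches is not given in the sources used here. Of the 50-base stretches in the Fdps transcripts, 26.2% also occurred in transcripts of 8 other genes, whose summed counts were 1 to 9 per library, and 1124 of its 1453 exon bases are shared with the gene model Gm43738 on the same strand, which had 0 counts throughout. Such stretches made up 17.7% for Idi1 and 9.38% for Fdft1, and the genes sharing them summed to at most 2 counts. The shares were smaller for Insig1 (2.17%), Dhcr7 (1.36%), Hmgcs1 (0.474%) and Cyp51 (0.135%), but the 28 genes sharing stretches with Dhcr7 summed to 460 to 2051 counts and those sharing with Hmgcs1 to 5172 to 33904. For Sqle the share was 0. On the opposite strand, Fdft1 shares 774 exon bases with Ctsb (1091 to 5403 counts) and Cyp51 shares 166 with Akap9 (21 to 185 counts). The genotype change of Ctsb was 0.08 on the log2 scale in the polysomal and -0.49 in the sub-polysomal pool, that of Akap9 was -0.01 and -0.13, and none passed the test. The log2 ratio of polysomal to sub-polysomal RNA did pass for Akap9 in mock (1.02) and METTL7A1 cells (1.14). For Ctsb it passed in METTL7A1 (0.58) and not in mock cells (0.01). Values for all members but Sqle are uncertain to that extent.

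All 8 mRNAs stood higher on average in the polysomal RNA of METTL7A1 than of mock cells, and 4 of them rose past the threshold. These were Cyp51, Sqle, Fdps and Insig1, and 0 of 8 fell. A change was said to pass when its adjusted p in edgeR's quasi-likelihood test, fitted over all 12224 genes, was below 0.01. By that rule 5.03% of all genes were higher and 3.78% lower. The median log2 change of the 8 was 0.67, beside -0.01 for all genes. In 7 of the 8, all but Idi1, the METTL7A1 libraries lay above the mock libraries with no overlap, as they did in 18.9% of all genes. None of the 8 also passed a log2 change of 1.5, a limit beyond which 0.982% of all genes were higher.

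Polysomal libraries of METTL7A1 cells also differed in marker sums. The leukocyte sum was nearly all Cd68, since Cd3e was at 0 throughout and Ptprc was at 0 in 11 of 12 libraries. It was 15.5 to 25.5 CPM in METTL7A1 and 5.70 to 9.04 CPM in mock polysomal RNA, without TMM scaling. The 5 epithelial markers summed to 4022 to 4743 and to 2834 to 3420 CPM. In sub-polysomal RNA the sums of the genotypes overlapped. The epithelial sums were 1551 to 1813 CPM in METTL7A1 and 1686 to 1831 CPM in mock libraries. The leukocyte sums were 8.90 to 14.8 and 6.93 to 11.0 CPM. The part of the polysomal differences in the members' changes was not tested.

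In sub-polysomal RNA 3 of the 8 mRNAs rose in METTL7A1 cells, Sqle, Cyp51 and Dhcr7, and 0 fell. Among all genes 10.5% were higher and 7.69% lower. Under scaling by the Actb count these shares were 17.1% and 2.23% in sub-polysomal RNA, and 4.72% and 1.83% in polysomal RNA. The median log2 change of the 8 was 0.48, beside -0.0015 for all genes, and Hmgcs1 and Idi1 lay below 0, though Hmgcs1 stood at 0.045 under Actb scaling. Libraries did not overlap in 5 of the 8 (Fdps, Sqle, Cyp51, Dhcr7 and Insig1), against 23.5% of all genes that were higher without overlap. None passed a log2 change of 1.5, beyond which 1.5% of all genes were higher. Together the 8 mRNAs made up 0.0364% to 0.0445% of the counts in mock and 0.0494% to 0.0592% in METTL7A1 sub-polysomal libraries. In polysomal libraries the shares were 0.0534% to 0.0570% and 0.0921% to 0.111%.

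**Figure D1:**
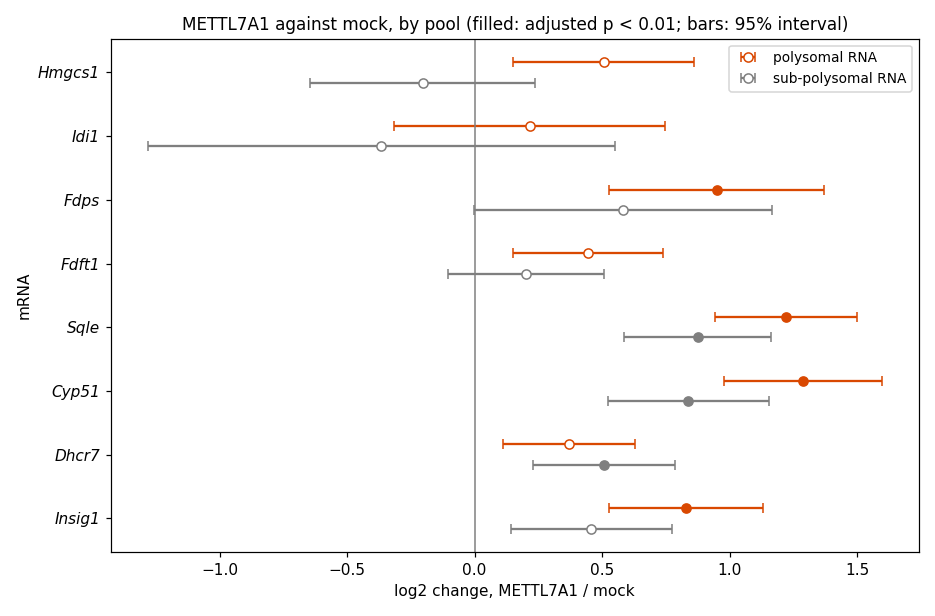
Log2 change of METTL7A1 against mock cells for each of the 8 mRNAs, in polysomal (orange) and sub-polysomal (grey) RNA; bars are 95% intervals of the edgeR fit with 3 libraries per group, and filled points passed an adjusted p of 0.01. Cyp51 and Sqle lie farthest to the right in polysomal RNA, at 1.29 and 1.22, and both are filled in both pools.

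Hmgcs1 encodes the synthase that makes HMG-CoA, an early intermediate of the pathway (chr13:119690446-119708260 of GRCm38, plus strand). Its polysomal level was 46.2, 38.6 and 27.7 CPM in the mock replicates A to C and 51.1, 54.3 and 54.1 CPM in the METTL7A1 replicates D to F. The 3 METTL7A1 values lay close together above all mock values, whose spread was wide. The log2 difference of 0.51 (SE 0.17, 95% interval 0.15 to 0.86) missed the threshold, with an adjusted p of 0.0454. In sub-polysomal RNA the levels were 23.7, 17.0 and 25.7 CPM in mock and 16.9, 18.6 and 22 CPM in METTL7A1 cells, and the ranges overlapped. The log2 difference was -0.20 (SE 0.21, adjusted p = 0.490).

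Idi1 encodes the isomerase that interconverts the isoprenoid building blocks isopentenyl and dimethylallyl diphosphate (chr13:8885501-8892451, plus strand). It was the weakest of the 8, with 6.28, 4.95 and 4.10 CPM in mock and 5.62, 5.78 and 6.40 CPM in METTL7A1 polysomal RNA. In sub-polysomal RNA it had 3.39, 1.57 and 2.57 CPM in mock and 0.995, 2.73 and 1.67 CPM in METTL7A1 cells. The genotypes overlapped in both pools. Its log2 differences were 0.22 (95% interval -0.31 to 0.74) in polysomal and -0.37 (95% interval -1.28 to 0.55) in sub-polysomal RNA. The latter interval is wide, at 3 to 13 counts per library.

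Fdps joins isoprenoid units into farnesyl diphosphate, the branch point to sterols, prenylated proteins and ubiquinone (chr3:89093588-89101959, minus strand). In polysomal RNA its level was 5.05, 6.32 and 4.96 CPM in mock and 10.4, 11.4 and 9.60 CPM in METTL7A1 cells. Every METTL7A1 library exceeded every mock library, and the fold of 1.93 passed the test (log2 0.95, SE 0.20, adjusted p = 0.00300). Leaving out mock replicate C, or any of D, E and F, raised the adjusted p above 0.01, to at most 0.0371, while the log2 change stayed between 0.88 and 1.07 over the fits that left out 1 replicate. In sub-polysomal RNA 2.26, 4.09 and 5.33 CPM in mock compared with 6.96, 5.96 and 6.46 CPM in METTL7A1 cells. These did not overlap either, although the log2 difference of 0.58 (SE 0.28) did not pass (adjusted p = 0.121).

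Fdft1, squalene synthase, makes squalene from farnesyl diphosphate in the first step that leads only to sterols (chr14:63145150-63179578, minus strand). Polysomal levels were 78.9, 81.6 and 101 CPM in mock and 133, 117 and 106 CPM in METTL7A1 cells. The highest mock and the lowest METTL7A1 value were close but did not overlap. A log2 difference of 0.45 (SE 0.14, 95% interval 0.15 to 0.74) had an adjusted p of 0.0338. Sub-polysomal levels overlapped, at 91.4, 89.4 and 99.9 CPM in mock and 120.0, 109.7 and 94.2 CPM in METTL7A1 cells, with a log2 difference of 0.20 (SE 0.15, adjusted p = 0.310).

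Sqle epoxidises squalene, a rate-limiting step of the sterol part of the pathway (chr15:59315081-59331192, plus strand). In polysomal RNA it measured 107, 100.5 and 111 CPM in mock and 278, 236 and 228 CPM in METTL7A1 cells. Mean levels were 106 ± 5.33 and 247 ± 26.6 CPM (SD, n = 3), and the lowest METTL7A1 library exceeded the highest mock library by far more than either group's spread. The change was 2.33-fold (log2 1.22, SE 0.13, adjusted p = 3.74e-06). In sub-polysomal RNA the levels were 78.4, 94.4 and 92.4 CPM against 163, 175 and 150.2 CPM. Here too Sqle rose, by 1.83-fold (log2 0.87, SE 0.14, adjusted p = 0.000142).

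Cyp51, the lanosterol demethylase that starts the trimming of lanosterol towards cholesterol (chr5:4081145-4104746, minus strand), was the other enzyme mRNA that rose in both pools. Polysomal levels were 129, 119.9 and 134 CPM in mock and 353, 290.2 and 291 CPM in METTL7A1 cells. On average these were 128 ± 7.09 and 312 ± 35.9 CPM (SD, n = 3), a 2.44-fold rise (log2 1.29, SE 0.15, adjusted p = 6.86e-06). Replicate D gave the highest METTL7A1 value in both pools. Sub-polysomal levels were 139, 107 and 123 CPM in mock and 253, 211 and 195 CPM in METTL7A1 cells, a rise of 1.79-fold (log2 0.84, SE 0.15, adjusted p = 0.000415). For Sqle and Cyp51 the rise passed in each of 13 alternative analyses in each pool.

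Dhcr7 encodes the reductase that makes cholesterol from its immediate precursor (chr7:143823167-143848410, plus strand). Its polysomal levels of 60.2, 52.4 and 59.9 CPM in mock and 79.3, 71.0 and 72.6 CPM in METTL7A1 cells did not overlap. The log2 difference was 0.37 (SE 0.12, 95% interval 0.11 to 0.63), with an adjusted p of 0.0443. In sub-polysomal RNA, levels of 51.4, 48.8 and 46.6 CPM rose to 73.6, 66.3 and 68.1 CPM (log2 0.51, SE 0.13, adjusted p = 0.00722). This call was the least firm of the sub-polysomal calls. It passed in 6 of 13 alternatives, with adjusted p between 0.00154 and 0.0451, and was lost on leaving out mock replicate B or C, or METTL7A1 replicate D, E or F.

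Insig1 encodes the endoplasmic reticulum protein that retains SCAP and is itself switched on by SREBPs (chr5:28071363-28078662, plus strand). In polysomal RNA it had 31.7, 38.9 and 40.5 CPM in mock and 71.2, 62.9 and 63.2 CPM in METTL7A1 cells. It rose 1.78-fold (log2 0.83, SE 0.14, adjusted p = 0.000524). In sub-polysomal RNA it had 66.6, 51.9 and 52.1 CPM in mock and 85.9, 73.2 and 72.9 CPM in METTL7A1 cells, again without overlap. There the log2 difference was 0.46 (SE 0.15) and missed the threshold, with an adjusted p of 0.0265. The difference passed in 2 of 13 alternatives. Its adjusted p lay between 0.00557, without mock replicate A, and 0.115, without METTL7A1 replicate D. The paralogue of Insig1, Insig2, did not pass in either pool, with log2 values of -0.16 and -0.28, and the paralogue Idi2 was not expressed highly enough to be tested.

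**Figure D2:**
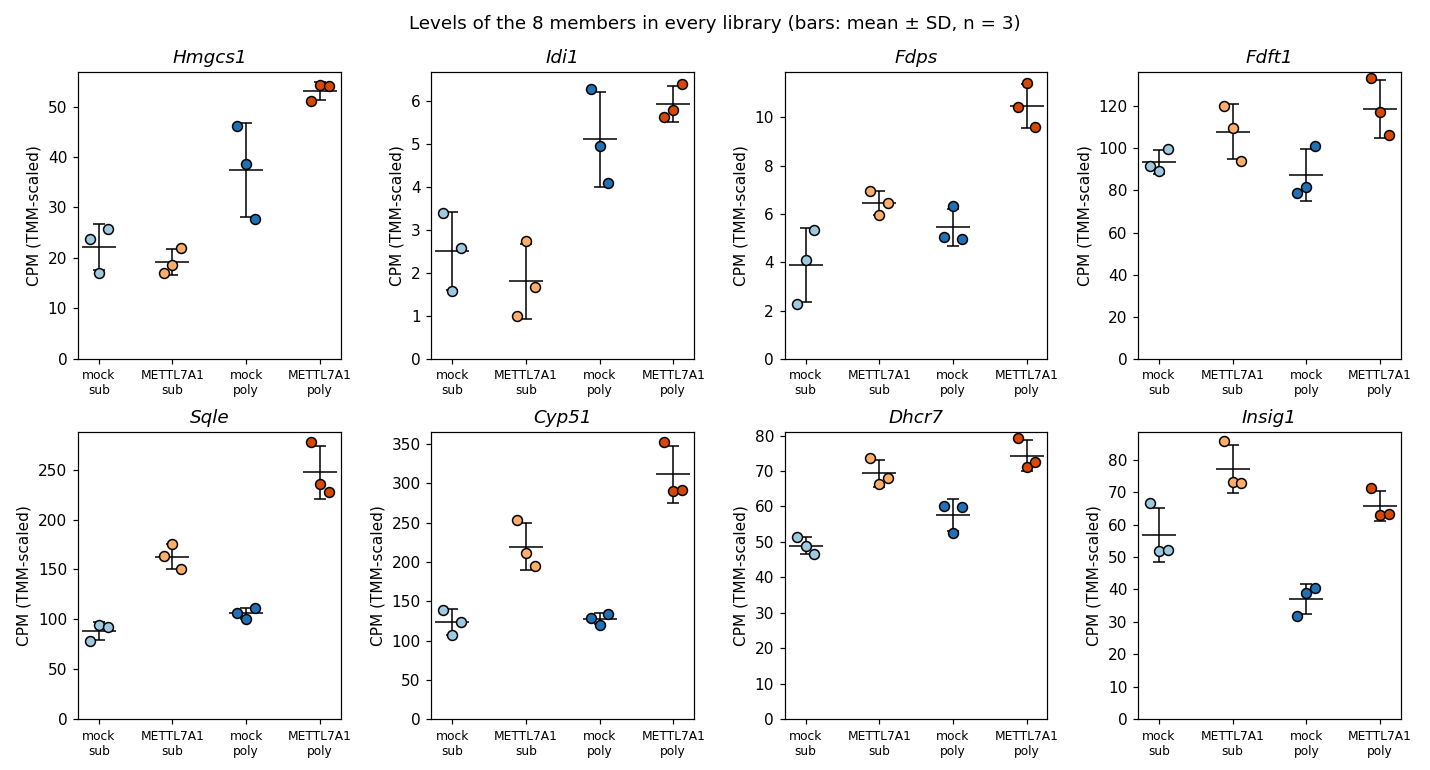
CPM of each of the 8 mRNAs in every library (TMM-scaled, each axis from 0), with sub-polysomal RNA on the left and polysomal RNA on the right of each panel and mock in blue and METTL7A1 in orange; lines and bars are the mean and SD of 3 libraries. In polysomal RNA the METTL7A1 points lie above the mock points in every panel but that of Idi1, and Insig1 alone has lower points in polysomal than in sub-polysomal RNA in both genotypes.

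Per kilobase of exon, so that genes could be compared, Sqle and Cyp51 had the highest levels in every group. In mock polysomal RNA the order was Sqle (38.5 CPM per kb), Cyp51 (32.5), Fdft1 (21.9), Dhcr7 (17.4), Insig1 (13.7), Hmgcs1 (10.8), Fdps (3.75) and Idi1 (1.69). Of these neighbours only Insig1 and Hmgcs1 had overlapping libraries. In METTL7A1 polysomal RNA Sqle (89.6 CPM per kb) and Cyp51 (79.3) overlapped, and Fdft1 (29.8) was the next. Insig1 (24.4) had moved above Dhcr7 (22.4), with overlapping libraries, and Hmgcs1 (15.3), Fdps (7.21) and Idi1 (1.96) followed. The level per kilobase of Fdps uses its full exon length, most of which is shared with Gm43738. In sub-polysomal RNA Sqle and Cyp51 overlapped in both genotypes, as did Fdft1 and Insig1.

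The ratio of polysomal to sub-polysomal RNA describes where in the gradient an mRNA was found, relative to all others. In mock cells 1 of 8 members was higher in polysomal RNA, Hmgcs1, and 1 was lower, Insig1. Of all genes 15.7% were higher and 17.9% lower, and the median log2 ratio was 0.25 for the members and 0.05 for all genes. In METTL7A1 cells 4 of 8 were higher, Hmgcs1, Idi1, Sqle and Cyp51, and 0 were lower, with 23% of all genes higher and 23.7% lower and median log2 ratios of 0.55 and 0.06. A log2 ratio above 1.5 was passed by 0 members in mock cells (0.687% of all genes) and by Idi1 in METTL7A1 cells (1.76% of all genes). With Actb scaling, 2 members passed in METTL7A1 cells, Hmgcs1 and Idi1, where 10.9% of all genes were then higher and 27.9% lower.

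Hmgcs1 and Idi1, of the early and middle pathway, had the highest polysomal ratios in both genotypes. Hmgcs1 rose from 22.1 ± 4.54 CPM in sub-polysomal to 37.5 ± 9.29 CPM in polysomal RNA of mock cells (SD, n = 3), a log2 ratio of 0.75 (SE 0.19, adjusted p = 0.00356). In METTL7A1 cells it rose from 19.2 ± 2.59 to 53.2 ± 1.79 CPM (SD, n = 3), a log2 ratio of 1.46 (SE 0.19, adjusted p = 3.4e-06). The mock ratio lost its call without mock replicate A (log2 0.56, adjusted p = 0.0465) or B (log2 0.56, adjusted p = 0.0589), whereas the METTL7A1 ratio passed in all 14 alternatives. For Idi1 the log2 ratio was 1.08 (SE 0.34, adjusted p = 0.0143) in mock and 1.66 (SE 0.34, adjusted p = 0.000403) in METTL7A1 cells. These ratios rest on 5 to 13 counts in mock and 3 to 11 counts in METTL7A1 sub-polysomal libraries. The METTL7A1 ratio passed in all 13 alternatives, at log2 1.42 to 2.10, and the mock ratio in 1 of 13.

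Sqle and Cyp51 passed in METTL7A1 and not in mock cells, a difference tested below. The log2 ratio of Sqle was 0.26 (SE 0.14, adjusted p = 0.130) in mock and 0.60 (SE 0.13, adjusted p = 0.000738) in METTL7A1 cells, and that of Cyp51 was 0.06 (SE 0.15, adjusted p = 0.778) and 0.51 (SE 0.15, adjusted p = 0.00602). Both METTL7A1 calls were lost without replicate D, at adjusted p of 0.0165 and 0.0184, and that of Cyp51 also without E (0.0418) or F (0.0421). Under Actb scaling both were lost too, at 0.0672 and 0.256. Fdps had log2 ratios of 0.34 and 0.71, the latter just outside the threshold (adjusted p = 0.0102). Its mock ratio ranged from 0.18 without mock replicate A to 0.74 without C. Fdft1 (log2 -0.10 and 0.14) and Dhcr7 (log2 0.24 and 0.10) did not pass in either genotype, and Actb scaling turned their METTL7A1 values to -0.11 and -0.14. Insig1 ran the other way, falling from 56.9 ± 8.41 to 37.0 ± 4.68 CPM in mock cells (SD, n = 3; log2 ratio -0.60, SE 0.15, adjusted p = 0.00301). That call was lost without mock replicate A (log2 -0.43, adjusted p = 0.0235) and with only the compared groups in the fit (adjusted p = 0.0130). Its ratio in METTL7A1 cells, -0.23 (SE 0.14), did not pass (adjusted p = 0.174). The mock ratio of Insig2 was also lower (log2 -0.60, adjusted p = 0.00327).

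**Figure D3:**
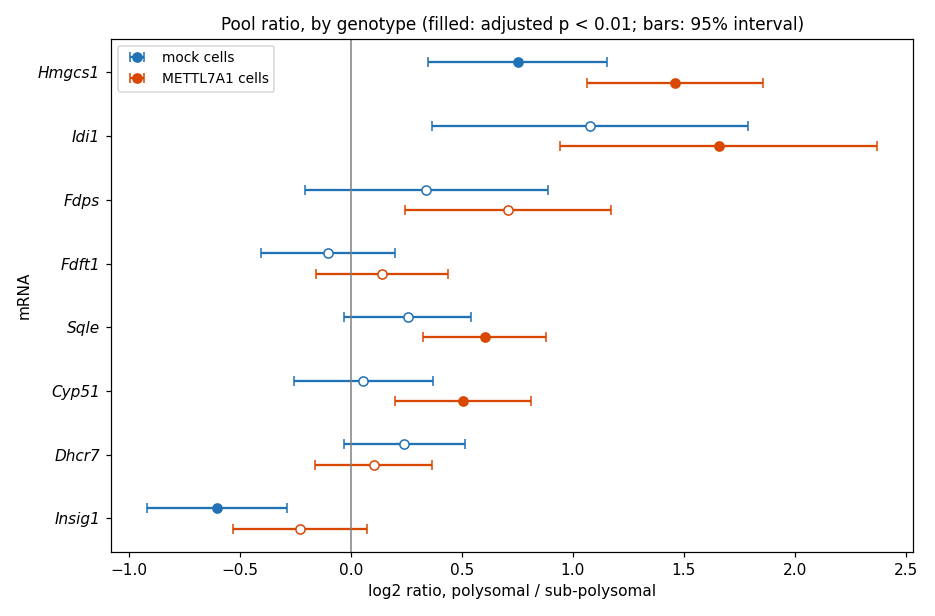
Log2 ratio of polysomal to sub-polysomal RNA for the 8 mRNAs in mock (blue) and METTL7A1 (orange) cells; bars are 95% intervals of the edgeR fit with 3 libraries per group, and filled points passed an adjusted p of 0.01. The METTL7A1 point lies to the right of the mock point for all but Dhcr7, with intervals that overlap in every pair.

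Whether the ratio itself differed between genotypes was tested as the interaction of genotype and pool. It is also the polysomal minus the sub-polysomal genotype change, so each member's 4 values above share libraries and are not independent. The log2 shift was above 0 in 7 of 8 members, with a median of 0.37 beside -0.01 for all genes, but 0 of 8 passed. The highest values were those of Hmgcs1 (0.71, 95% interval 0.14 to 1.28, adjusted p = 0.216), Idi1 (0.58, 95% interval -0.48 to 1.64, adjusted p = 0.614) and Cyp51 (0.45, 95% interval 0.01 to 0.89, adjusted p = 0.305). Without mock replicate C, the Hmgcs1 shift was 0.36 and that of Idi1 0.34, and over all left-out replicates they reached 0.90 and 1.02, the latter without METTL7A1 replicate E, while that of Cyp51 stayed between 0.41 and 0.50. Those of Insig1 (0.37), Fdps (0.37), Sqle (0.35) and Fdft1 (0.24) had intervals that included 0, as did that of Dhcr7 (-0.14). Before adjustment 2 members had a p below 0.05. Across all genes edgeR also called 0% in either direction, with 1911 genes at an unadjusted p below 0.05. DESeq2 called 64 genes and limma-voom 0. Neither called a member, though DESeq2 gave no adjusted p for Idi1 and Fdps. With adjustment over all genes and 3 libraries per group, shifts of these sizes were not distinguishable from 0.

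Of the other enzymes of the pathway, 11 mRNAs were counted in the same way. In polysomal RNA, where 5.03% of all genes were higher, 5 of 11 rose and 0 fell, with a median log2 change of 0.63. Hsd17b7 (log2 0.98) and Msmo1 (log2 0.89), which act on the sterol ring after Cyp51, were among them. Lss, which closes the ring to make lanosterol, rose from 18.2 ± 2.11 to 33.5 ± 2.49 CPM (SD, n = 3; log2 0.88, adjusted p = 0.00052), and Sc5d (log2 0.84) and Nsdhl rose as well. In sub-polysomal RNA 3 of 11 rose, Mvd and Tm7sf2 (both log2 1.05) and Mvk, with a median of 0.34. Among all genes 10.5% were higher there. The pool ratio was higher for 2 and lower for 1 in mock cells, where 15.7% of all genes were higher and 17.9% lower. In METTL7A1 cells it was higher for 7 and lower for 2, with 23% of all genes higher and 23.7% lower. Acat2 (log2 0.87 and 1.54) and Lss (log2 0.89 and 1.04) were higher in both genotypes. Mvk, the mevalonate kinase, was lower in both (log2 -1.05 and -1.43), opposite to these and to Hmgcs1 and Idi1. The shift was above 0 for 7 of 11, with a median of 0.20, and 0 of 11 passed in edgeR. An unadjusted p below 0.05 was found for 4, with Acat2, Msmo1 and Sc5d above 0 and Pmvk below (log2 -0.43). Of all 12224 genes, 1911 had such a p.

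**Figure D4:**
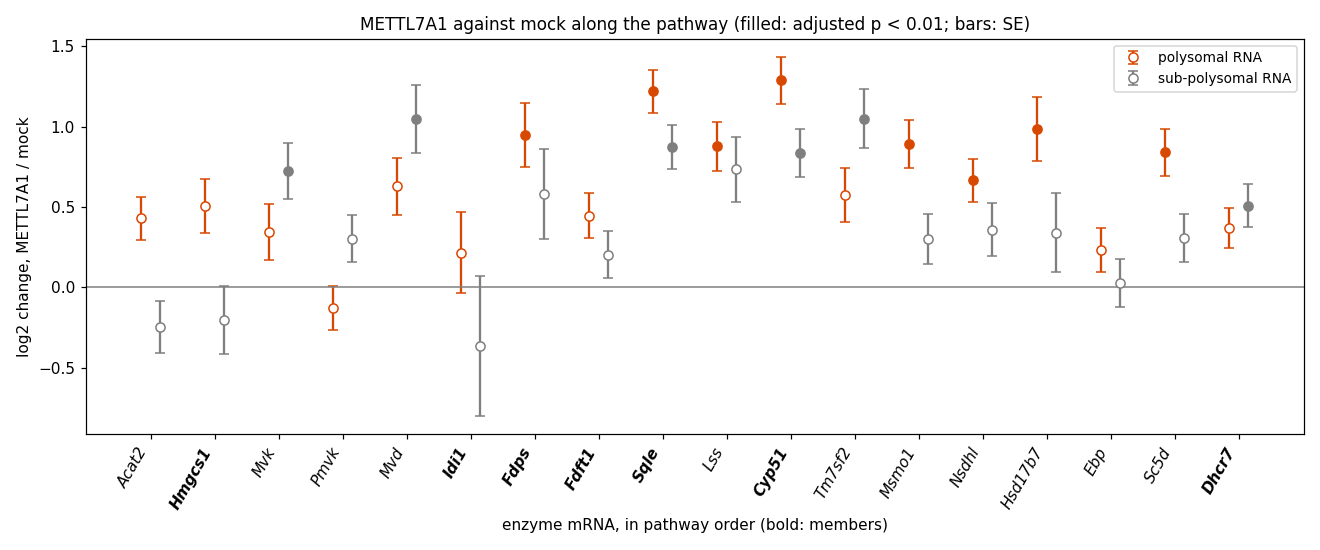
Log2 change of METTL7A1 against mock cells for 18 enzyme mRNAs in pathway order, from Acat2 to Dhcr7, in polysomal (orange) and sub-polysomal (grey) RNA; bars are the SE of the edgeR fit, filled points passed an adjusted p of 0.01, and the 7 enzymes among the 8 mRNAs are in bold. Filled orange points are those of Fdps, Sqle, Lss, Cyp51, Msmo1, Nsdhl, Hsd17b7 and Sc5d, and the only polysomal value below 0 is that of Pmvk, -0.13, which did not pass.

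Uptake and transport were read from 8 tested mRNAs. Tmem97, a sterol-responsive membrane protein, rose in both pools (log2 0.62 and 0.56), and the lipoprotein receptor Scarb1 rose in sub-polysomal RNA (log2 0.58). None of the 8 fell in either pool. Of 9 mRNAs of the SREBP machinery, Srebf2, which encodes SREBP2, rose in both pools, with log2 changes of 0.89 (adjusted p = 0.000216) in polysomal and 1.39 (adjusted p = 3.27e-06) in sub-polysomal RNA. In sub-polysomal RNA Scap (log2 0.82) and Srebf1 (log2 0.73) also rose, and Rnf145, which encodes a ubiquitin ligase, fell (log2 -0.60). The shift in pool ratio was above 0 for 5 of these 9, and 0 passed. The 2 with an unadjusted p below 0.05 in edgeR, Srebf2 (log2 -0.51) and Scap (log2 -0.65), lay below 0. Such a p for the shift was found for 1911 of all 12224 genes.

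Lists of neighbouring branches were counted last. Of 6 tested efflux and LXR mRNAs, Nr1h3, which encodes the sterol-sensing receptor LXR alpha, fell in polysomal RNA, from 4.26 to 7.32 CPM in mock to 1.28 to 2.19 CPM in METTL7A1 libraries (log2 -1.73, adjusted p = 0.00110), and 0 passed in sub-polysomal RNA, where 2 had an unadjusted p below 0.05 in edgeR. Of 3 tested mRNAs of cholesterol ester turnover 0 passed (0 in polysomal and 1 in sub-polysomal RNA with an unadjusted p below 0.05), with the widest values for Lipa (log2 -0.43) and Soat1 (log2 -0.42) in sub-polysomal RNA. Among 9 mRNAs of the isoprenoid branches that use farnesyl diphosphate, 0 passed in polysomal RNA (4 with an unadjusted p below 0.05) and Coq2, of ubiquinone synthesis, fell in sub-polysomal RNA (log2 -0.62). Of 14 fatty acid mRNAs, Fads2 (log2 0.88), Acsl3 (log2 0.79), Scd2 and Fads1 (both log2 0.70) rose in polysomal and Fads2 (log2 0.86) in sub-polysomal RNA.

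The members' profiles over the 12 libraries were also compared, by Pearson's r of log2 CPM, as a description. Over the 28 pairs of members r lay between -0.47 and 0.95, with a median of 0.55. Sqle (r = 0.96) and Cyp51 (r = 0.95) followed the mean of the other members most closely, and Hmgcs1 (0.46), Insig1 (0.34) and Idi1 (0.24), the mRNAs with the highest and lowest pool ratios, least. The genes outside the members whose profiles were most like the mean profile of all 8 were Mmp3 (r = 0.987), Plau (0.981), Slc20a1 (0.980), Mmp10 (0.978) and Itgb2 (0.977). All 12 points come from the same 4 groups, so any gene high in METTL7A1 polysomal and low in mock sub-polysomal RNA scores highly.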

How the data were processed

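The deposited values are read counts per gene, made by the authors. The paper describes stranded, rRNA-depleted libraries for its total RNA and gives no library preparation for the gradient pools. The submitters' processing notes name bcl2fastq 2.20.0.422, STAR 2.5.3a, featureCounts and R 3.5.1, and the builds GRCm38 and mm10. No normalization had been applied.

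A gene was tested when 3 or more libraries reached 1 CPM (12224 of 55376 genes). TMM factors set the library sizes. The fit, by edgeR 4.0.16 under R 4.3.3, gave each group its own mean and used all 12 libraries. Contrasts were tested by the quasi-likelihood test with Benjamini-Hochberg adjustment over all genes tested, at an adjusted p of 0.01. The authors state this filter, this threshold and a log2 limit of 1.5 for their total RNA, and the limit was used as a second rule. Each SE was the absolute log2 value divided by the square root of the F statistic of the quasi-likelihood test. The 95% intervals extend the log2 value by this SE times a t quantile. A prior count of 2 was added for log2 CPM.

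The 8 mRNAs, the gene lists and the tests were chosen with earlier results of these data known. Named genes were the 8, the genes of each list that passed in a genotype comparison (values for at most 4, and the 2 widest where none passed), the 5 genes of most similar profile, Mettl7a1 and Actb. Insig2, Ctsb, Akap9 and Gm43738 were named as paralogue or overlapping genes. Pmvk and Acat2 were named after their values were seen. The lists covered other cholesterol enzymes, uptake and transport, SREBP machinery, efflux and LXR, ester turnover, isoprenoid branches, fatty acid synthesis and paralogues, and some of their genes are not reported here.

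Alternatives were RLE factors, DESeq2 1.42.0, limma-voom (limma 3.58.1), scaling to Actb, other count filters, only the compared groups in the fit, the replicate letter as a block, other call rules, and leaving out each letter with both its libraries. Transcripts for the shared 50-base stretches were those of GENCODE M21, and positions are those of the count table. Figures were drawn with matplotlib 3.10.9.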

Additional observations from a re-analysis of the deposited data

How the results depend on the processing

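The genotype counts of 4 members in polysomal and 3 in sub-polysomal RNA stayed within 1.5 times under the other scalings, tests, filters and left-out replicates. At an adjusted p below 0.05 the polysomal count was 7, and with the log2 limit of 1.5 it was 0 in both pools. The mock pool ratio count of 2 became 1 with Actb scaling, 0 with only the compared groups in the fit and 0 with the log2 limit. Leaving out a replicate gave 0 to 2, 0 being without mock replicate A and 1 without B. The METTL7A1 pool ratio count of 4 became 2 with Actb scaling and 1 with the log2 limit, and 2 to 5 with a replicate left out, the 2 being without METTL7A1 replicate D. Actb scaling moved the median log2 change of all genes from -0.0015 to 0.26 in sub-polysomal and from -0.01 to 0.08 in polysomal RNA, and the median ratio in METTL7A1 cells from 0.06 to -0.18, and members move with it. Under it Hmgcs1 reversed to 0.045 for the sub-polysomal genotype change, Cyp51 to -0.040 for the mock ratio, and Fdft1 to -0.11 and Dhcr7 to -0.14 for the METTL7A1 ratio. The Fdps shift was -0.027 to 0.52 with a replicate left out, the lowest without mock replicate C. None of these reversed values had passed. A minimum of 10 counts in every library left out Idi1 and Fdps. The causes were not tested.

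The letters are shared by the pools of a genotype, but the r across genes between same-lettered libraries, each taken as its difference from the group mean, was -0.29 to 0.11, so they were not treated as pairs. With the replicate block 2 members passed for the mock ratio, 4 for the METTL7A1 ratio and 0 for the shift, as without it. Genotypes share no letters, so no block could be fitted for the genotype changes. Counts were lowest for Idi1 and Fdps, at 3 and 4 in their lowest library. Whether reads in the bases that Fdps shares with Gm43738 went uncounted was not tested.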
